A study of Mus musculus with 28 samples.

Results

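Cells sorted from the subependymal zone of adult mice with antibodies to PROM1 and CD24 were compared with cells sorted for GFP expressed from the Troy locus. The subependymal zone lies along the lateral ventricles and makes new neurons throughout life. Its stem cells share many genes with astrocytes, become dividing progenitors, and give rise to neuroblasts that migrate to the olfactory bulb. The zone also holds ependymal cells, which line the ventricle with cilia, as well as vessels, microglia and oligodendrocytes. PROM1 (CD133) is a membrane protein of ventricle-contacting cells, and CD24 is a surface glycoprotein that is high in neuroblasts and is also known from ependymal cells. Troy, the receptor encoded by Tnfrsf19, was used in this study to identify neural stem cells (NSCs). The comparison therefore sets a sort on antigens of the ventricle and of the neuronal lineage against a sort on a stem cell reporter.

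The Prom1/CD24 cells came from Bl/6 mice of 8 to 10 weeks and were stained with anti-PROM1 (CD133) and anti-CD24. The labels do not say which combination of the antibodies was collected. The Troy-GFP cells came from Troy-GFPiresCreER +/ki mice of the same strain label and age, heterozygous for a knock-in of GFP and CreER at Troy, and the labels name no tamoxifen for them. Neither sort has an unsorted or isotype control among the libraries used here. Both sorts were profiled by SORT-seq, in which single cells are sorted into 384-well plates and their polyadenylated RNA is amplified by CEL-seq with a barcode for each well and a random barcode for each molecule. Each sort gave 4 libraries of 96 wells, out of 28 libraries and 2688 wells in the series. Wells were counted as cells from 1000 estimated transcripts upward, spike-in left out. This left 64 Prom1/CD24 cells (11, 20, 17 and 16 in libraries 1 to 4) and 311 Troy-GFP cells (80, 76, 72 and 83), of 1789 cells in the series. The number of mice is not given. Since 4 libraries of 96 wells fill 1 plate, p-values here measure the spread between libraries, which may be technical. The 124 Prom1/CD24 wells with 500 to fewer than 1000 transcripts are described apart, at the end.

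The sorts differed in sex. The X-inactivating RNA Xist was found at 209.9, 456, 193 and 183 transcripts per 1000000 (CPM) in the Prom1/CD24 libraries, against 0, 0, 0 and 9.21 CPM in the Troy-GFP libraries. The sum of 4 Y-linked genes was 0 in every Prom1/CD24 library and 381 to 407 CPM in the Troy-GFP libraries. All 636 genes of chromosomes X and Y were left out for this reason. An autosomal difference between the sorts still cannot be told apart from one between sexes, mouse lines or sorting runs. By the names of the tables, all Prom1/CD24 libraries and Troy-GFP libraries 3 and 4 ran on 1 flow cell, and Troy-GFP libraries 1 and 2 on another. Across genes, the log levels of Prom1/CD24 libraries correlated with each other at Pearson's r of 0.62 to 0.76, those of Troy-GFP libraries at 0.92 to 0.94, and those of different sorts at 0.47 to 0.63; genes are not independent replicates. The libraries share the same 96 well positions, and 0 of the 2207 wells with at least 200 transcripts in the series held values identical to those of another well.

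Few Prom1/CD24 wells yielded a cell. The share of wells with at least 1000 transcripts was 11.5%, 20.8%, 17.7% and 16.7% in the Prom1/CD24 libraries, against 83.3%, 79.2%, 75.0% and 86.5% in the Troy-GFP libraries. The means were 16.7% ± 3.90 and 81% ± 4.99 (SD, n = 4 each), a difference of -64.3 percentage points (exact 2-sided permutation p = 0.0286, the smallest that 4 against 4 libraries allow). Transcripts of ERCC, a synthetic spike-in RNA, took 56.8%, 46.2%, 44.7% and 44.3% of all transcripts in the Prom1/CD24 libraries, against 9.52%, 8.66%, 9.11% and 9.38% in the Troy-GFP libraries (exact permutation p = 0.0286). Neither measure overlapped between the sorts. Among wells that passed as cells, the depths lay closer together. Their median transcripts were 3176, 3235, 5979 and 4551 in the Prom1/CD24 libraries, against 5778, 6380, 5113 and 5014 in the Troy-GFP libraries, and these overlapped (difference -1336, exact permutation p = 0.143). Passing Prom1/CD24 cells held 4.86 transcripts per ERCC transcript, against 11.3 in Troy-GFP cells. The ERCC transcripts themselves also differed, with a median of 1052 per Prom1/CD24 cell and 533 per Troy-GFP cell. The ERCC share and this ratio are therefore not a measure of RNA per cell alone. Whether both sorts received equal spike-in was not tested. The median number of genes per cell was 1996 in Prom1/CD24 and 2531 in Troy-GFP. Summed over cells, a Prom1/CD24 library held 43149 to 106429 transcripts and a Troy-GFP library 418769 to 544025, so low genes are measured far less exactly in Prom1/CD24.

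**Figure D1:**
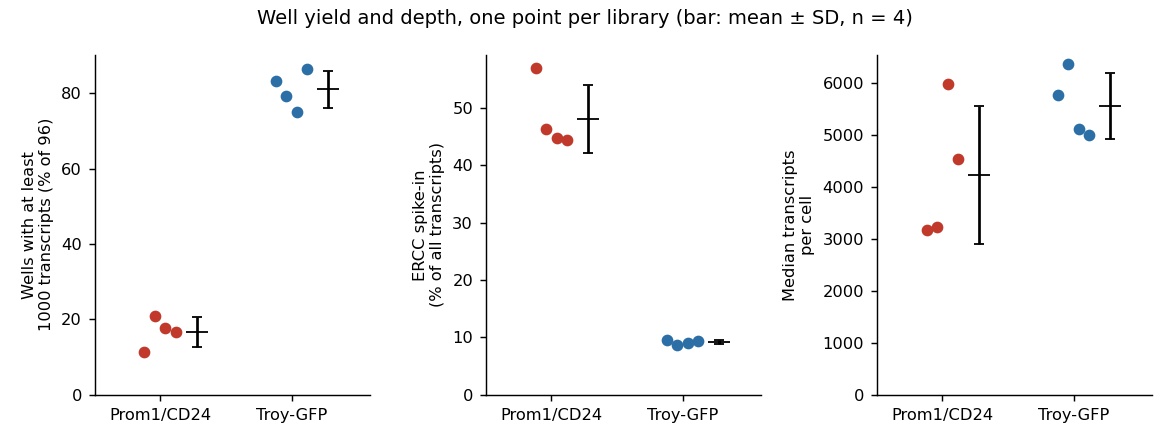
Share of the 96 wells with at least 1000 transcripts, share of ERCC spike-in among all transcripts, and median transcripts per cell, for Prom1/CD24 (left in each panel) and Troy-GFP (right); each point is a library and the bars give mean ± SD (n = 4). The first and second measures separate the sorts fully, with 11.5% to 20.8% of wells passing in Prom1/CD24 and 75.0% to 86.5% in Troy-GFP, while median depth per cell overlaps.

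The genes that define the sorts did not all follow them. Cd24a (chromosome 10, 43578284 to 43584265, mm10), which encodes CD24, stood at 434, 549, 849.8 and 758 CPM in the Prom1/CD24 libraries and at 138, 97.7, 143 and 112 CPM in the Troy-GFP libraries. Every Prom1/CD24 library was above every Troy-GFP library, and Cd24a rose by 2.41 ± 0.22 on the log2 scale (SE; limma voom adjusted p = 2.64e-06). It was detected in 27 of 64 Prom1/CD24 cells and 60 of 311 Troy-GFP cells, and after thinning each cell to 1000 transcripts in 24.7% ± 3.30 and 8.36% ± 3.00 of cells (SD over 4 libraries). Prom1 (chromosome 5, 43993620 to 44102032) was too low to be tested: its levels were 47.7, 27.4, 72.8 and 30.7 CPM in Prom1/CD24 and 33.4, 23.3, 27.7 and 48.5 CPM in Troy-GFP, which overlap. It was found in 10 of 64 and 43 of 311 cells. Tnfrsf19 (chromosome 14, 60963875 to 61046490), the gene of Troy, stood at 0, 63.9, 97.1 and 30.7 CPM in Prom1/CD24 and at 165, 127, 98.1 and 124 CPM in Troy-GFP. The libraries did not overlap, but library 3 of each sort nearly met, and the log2 fold of -1.37 ± 0.54 did not pass (adjusted p = 0.0745). Tnfrsf19 passed without Troy-GFP library 3 (-1.53, adjusted p = 0.0489), from 500 transcripts per well upward (-1.59, adjusted p = 0.0371), from 2000 upward (-1.64, adjusted p = 0.0348) and with no filter on low values (-1.73, adjusted p = 0.0124). It did not pass under the other alternatives, where adjusted p ran from 0.061 to 0.283. The antigen protein and the GFP were not measured, so these are transcripts of the sorted antigens and not the sort signal.

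The genes behind other sorts of the series moved as well. Slc1a3 (chromosome 15, 8634124 to 8710764), the glutamate transporter GLAST of astrocytes and stem cells, stood at 459, 907, 575 and 686 CPM in Prom1/CD24 and at 3281, 3325, 3269 and 3006 CPM in Troy-GFP. Egfr (chromosome 11, 16752203 to 16918158), the EGF receptor of activated stem cells and progenitors, stood at 23.9, 120.3, 0 and 51.3 CPM in Prom1/CD24 and at 219, 202, 167 and 237 CPM in Troy-GFP. Both were lower in every Prom1/CD24 library, with log2 folds of -2.27 ± 0.16 (adjusted p = 2.49e-07) and -2.37 ± 0.64 (adjusted p = 0.0137). Mki67 (chromosome 7, 135689784 to 135716361), a protein of dividing cells, stood at 561, 578, 246 and 514 CPM in Prom1/CD24 and at 145 to 315 CPM in Troy-GFP. It rose by 1.01 ± 0.28 (adjusted p = 0.0146), although Prom1/CD24 library 3 lay below 2 Troy-GFP libraries. Mki67 did not pass without Prom1/CD24 library 2 (adjusted p = 0.0511) or 4 (adjusted p = 0.0577), or on the shared flow cell (adjusted p = 0.0568).

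Over all 5477 autosomal genes tested, 1412 passed (adjusted p below 0.05), 780 higher and 632 lower in Prom1/CD24, which is 14.2% and 11.5% of those tested and 25.8% in all. The median log2 fold over all genes tested was -0.01. Prom1/CD24 library 4 carried many calls: without it 930 genes passed. The libraries did not overlap, with Prom1/CD24 higher, for 12.1% of the genes tested and, with Prom1/CD24 lower, for 16.5%. These shares are the background for the lists below. Each value is a sum over the cells of a library, so fewer cells of a type and less RNA per cell cannot be told apart.

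**Figure D2:**
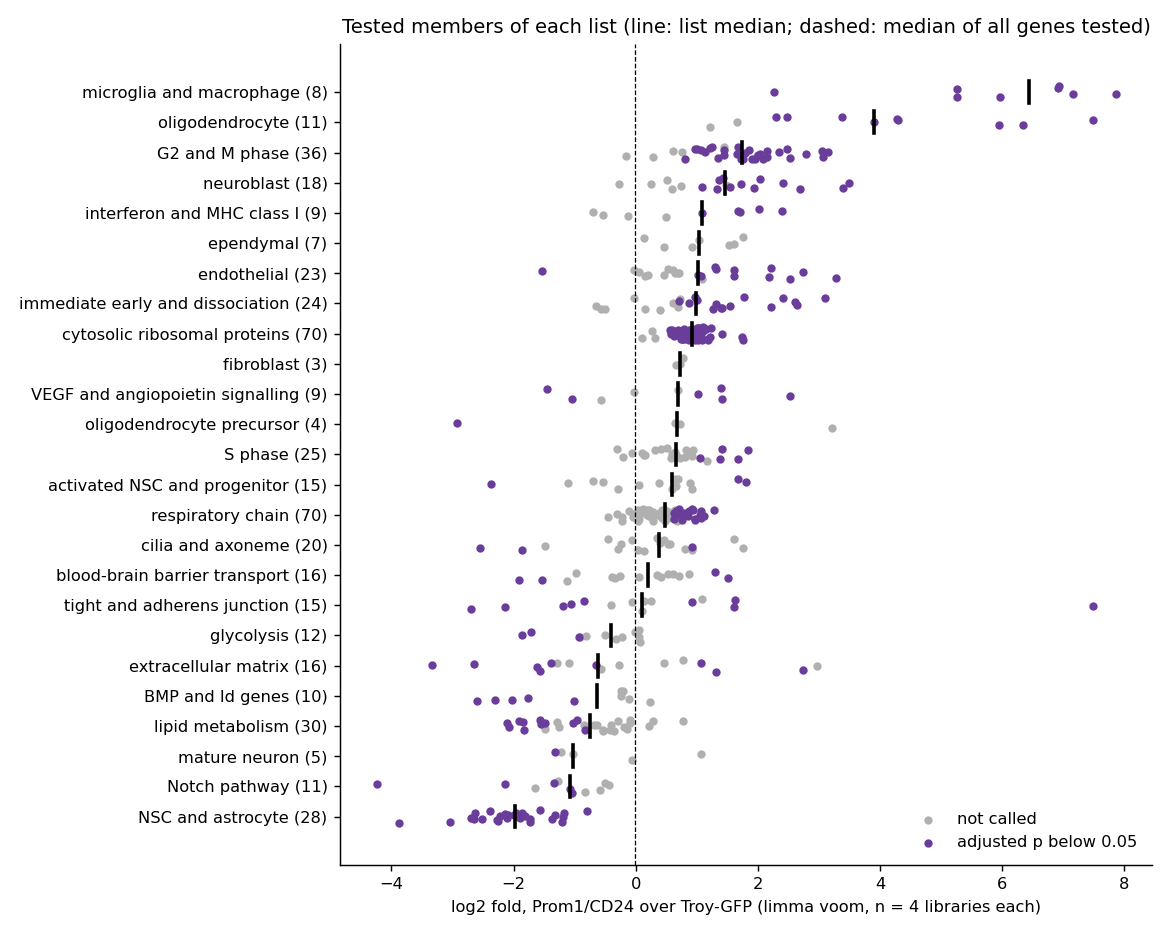
Log2 fold of Prom1/CD24 over Troy-GFP (limma voom, n = 4 libraries each) for each tested member of the 25 lists with at least 3 tested members, ordered by list median (black line), with genes at adjusted p below 0.05 in purple; the dashed line is the median of all genes tested, -0.01. NSC and astrocyte markers lie lowest (median -1.98), and microglial (6.43) and oligodendrocyte markers (3.90) highest.

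Stem cell and astrocyte genes fell throughout. All 28 tested members of the NSC and astrocyte list were lower in Prom1/CD24, with a median log2 fold of -1.98 and a range of -3.87 to -0.80, against 11.5% lower among all genes tested. The list's summed level was 17062, 17280, 26720 and 14132 CPM in Prom1/CD24 and 63838 to 67171 CPM in Troy-GFP. Library 3 was the highest of Prom1/CD24 and still held less than any Troy-GFP library. Slc1a2, the astrocyte glutamate transporter GLT-1, stood at 363, 1647, 1184 and 837 CPM in Prom1/CD24 and at 7763 to 8015 CPM in Troy-GFP (log2 fold -3.04 ± 0.24, adjusted p = 9.44e-07). Aldoc, a glycolytic aldolase of astroglia, fell by 1.85 ± 0.15. Bcan, which encodes the proteoglycan brevican, fell by 2.65 ± 0.19. In none of these genes did the sorts overlap. Within cells of the NSC and astrocyte-like class, defined below, Slc1a3 stood at 4376 CPM in 10 Prom1/CD24 cells and 4266 CPM in 203 Troy-GFP cells, and Slc1a2 at 8059 and 10170 CPM. These class levels are sums over all cells of a sort, with no test, since most Prom1/CD24 libraries held 1 or 2 such cells. Both genes are on the marker list that named the class, so their levels in its cells are not independent of the class.

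The lowest folds belonged to genes of different kinds. Besides Hes5, described with the Notch pathway, the 12 lowest called genes without overlap were Crym, Gcnt4, Utp14b, Thbs4, Dab1, Oaf, Prrx1, Dio2, Paqr7, Gpc5 and Tlr3. Gcnt4, Utp14b, Oaf, Prrx1, Gpc5 and Tlr3 lay below the filter in every Prom1/CD24 library. They were tested only through Troy-GFP, so their folds are a description. Crym, which encodes the thyroid hormone-binding protein mu-crystallin, stood at 0, 73.2, 0 and 20.4 CPM in Prom1/CD24 and at 289.7, 421, 598 and 415 CPM in Troy-GFP (log2 fold -4.34 ± 0.87, adjusted p = 0.00205). Thbs4, which encodes thrombospondin 4 and is known from subependymal stem cells and astrocytes, stood at 0, 129, 0 and 0 CPM in Prom1/CD24 and at 169, 315, 222 and 184 CPM in Troy-GFP. Its Prom1/CD24 transcripts came from 2 cells of library 2. Gcnt4, which encodes a glycosyltransferase, was found in 0 of 64 Prom1/CD24 cells and in 123 of 311 Troy-GFP cells. Taking cells as independent draws, which leaves out the spread between libraries, the 0 allows a share of up to 4.69% of cells with a detected transcript. That holds at this depth and sets no limit on cells that express the gene. Counted against a floor of 3 transcripts over the Prom1/CD24 sort, its log2 fold was -3.54 or lower. Dio2, the enzyme that activates thyroid hormone, Prrx1, a homeobox factor, and Tlr3, a receptor for double-stranded RNA, were seen in 2, 2 and 3 Prom1/CD24 cells and in 166, 136 and 133 Troy-GFP cells. Utp14b lies inside the span of Acsl3 on the same strand of chromosome 1, so reads of these genes may not be told apart.

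Notch and BMP genes were lower in part. In the Notch pathway, by which neighbouring cells hold each other as stem cells, 5 of 11 tested members fell and 0 rose, with a median log2 fold of -1.08. Among all genes tested, the background for both lists here, 11.5% were lower and 14.2% higher. Hes5, a transcriptional repressor induced by Notch, stood at 47.8, 18.3, 0 and 103 CPM in Prom1/CD24 and at 506, 537, 584 and 679 CPM in Troy-GFP. It was detected in 6 of 64 and 223 of 311 cells and fell by 4.23 ± 0.65 (adjusted p = 0.000281). Of the receptors, Notch1 fell by 1.05 ± 0.22 (adjusted p = 0.00299) and Notch2 had a log2 fold of -2.13 ± 0.65 (adjusted p = 0.0242). Without Prom1/CD24 library 1 or 4, 2 members of the list passed, and without library 2, 3 passed. Of 10 tested BMP and Id genes, 5 fell and 0 rose, with a median of -0.63, and 3 fell without Prom1/CD24 library 4. The Id genes encode inhibitors of neurogenic factors that BMP signals induce: Id2 stood at 193, 137, 318 and 217 CPM in Prom1/CD24 and at 687, 765, 714 and 693 CPM in Troy-GFP, and Id4 at 71.6 to 97.0 and 328 to 431 CPM. Id2 fell by 1.77 ± 0.21, Id3 by 1.01 ± 0.27, Id4 by 2.03 ± 0.27, and the BMP receptor gene Bmpr1b by 2.59 ± 0.59. Bmpr1b lay below the filter in every Prom1/CD24 library and was tested only through Troy-GFP. Within NSC and astrocyte-like cells, Hes5 was at 258 CPM in Prom1/CD24 (4 of 10 cells) and 731.5 CPM in Troy-GFP (176 of 203 cells), and Id4 at 193 and 477 CPM, again with no test.

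The start of Hes5 is printed here because it had the lowest fold of the Notch list. The stretch holds the 100 bases before its RefSeq start (GRCm38.p6, chr4:154960823-154960922, plus strand), with TGGGAA, the core of the motif bound by the Notch effector RBPJ, in capitals.
Hes5: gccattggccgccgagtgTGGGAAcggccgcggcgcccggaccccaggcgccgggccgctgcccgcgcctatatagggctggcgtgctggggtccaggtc
Searched on both strands from 250 bases before to 50 after the start, TGGGAA or its reverse TTCCCA stood in 3 of the 9 Notch members with a RefSeq promoter (33.3%), in 21.6% of the 4210 promoters of genes tested and in 25.5% of all 27025 promoters. A match is a description of letters in this window only.

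Some genes of lipid metabolism, glycolysis and the matrix were lower. In the lipid metabolism list 11 of 30 fell and 0 rose (median -0.75), against 11.5% lower and 14.2% higher among all genes tested. When every cell was given the same weight, 5 fell. The acyl-CoA synthetase gene Acsl3 stood at 192, 247, 469.6 and 413 CPM in Prom1/CD24 and at 1356 to 1436 CPM in Troy-GFP (log2 fold -2.08 ± 0.20). Its relative Acsl6 fell by 2.10 ± 0.24, Srebf1, a regulator of lipid synthesis, by 1.83 ± 0.34, and Apoe, the main brain apolipoprotein, by 1.57 ± 0.24. Apoe stood at 3376, 2334, 6803 and 2041 CPM in Prom1/CD24 and at 8329 to 10568 CPM in Troy-GFP, without overlap. Of 12 glycolysis genes 3 fell and 0 rose (median -0.41), against 11.5% and 14.2% of all tested, and 1 fell without Prom1/CD24 library 4. Aldoc, named above, was among them, beside Ldhb (-0.92 ± 0.24) and the muscle-type phosphofructokinase Pfkm (-1.72 ± 0.53), both of which overlapped between the sorts. The extracellular matrix list split, with 3 of 16 higher and 6 lower, against 14.2% and 11.5% of all genes tested. Sparcl1, which encodes the glial protein hevin, fell by 1.61 ± 0.18, and Hapln1, a link protein of hyaluronan, by 3.34 ± 0.60, while Igfbp7, known from vessel walls, rose by 2.74 ± 0.35.

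**Figure D3:**
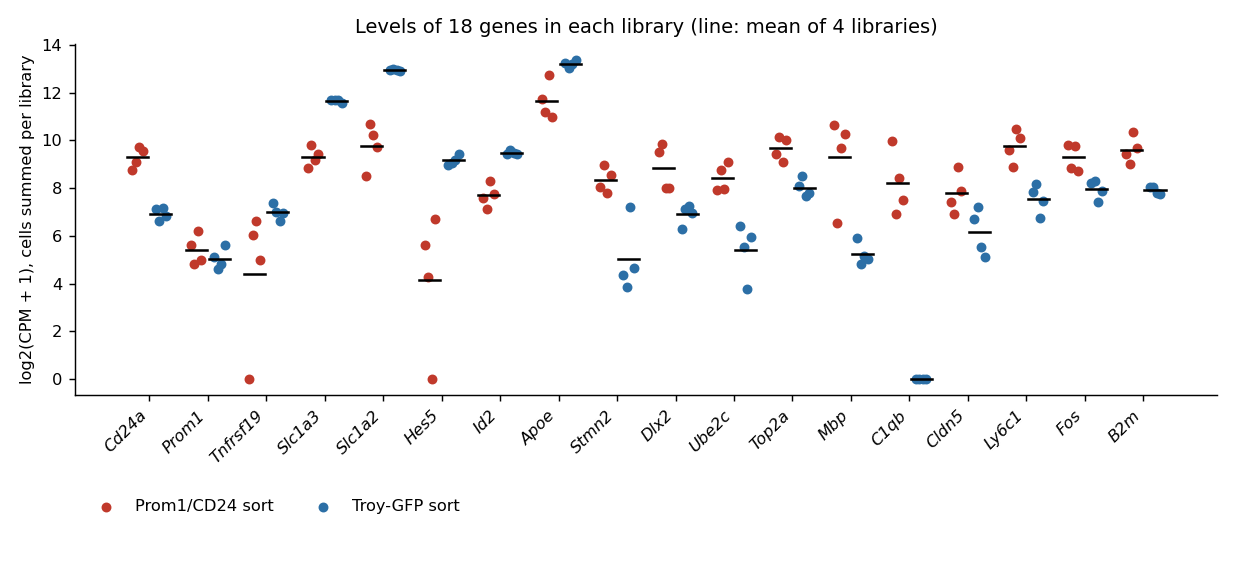
Level of 18 genes in each library as log2(CPM + 1) of cells summed per library, with Prom1/CD24 left of Troy-GFP for each gene and lines at the mean of 4 libraries. Slc1a3, Slc1a2, Hes5, Id2 and Apoe lie lower in every Prom1/CD24 library, Cd24a, Stmn2, Dlx2, Ube2c, Top2a, Mbp, C1qb, Ly6c1, Fos and B2m higher in every one, and Prom1 and Cldn5 overlap.

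Neuroblast genes rose. Of 18 tested members of the neuroblast list 12 were higher and 0 lower in Prom1/CD24, with a median log2 fold of 1.46, against 14.2% higher among all genes tested. The summed level was 9950, 13732, 5908 and 10361 CPM in Prom1/CD24 and 2982 to 4350 CPM in Troy-GFP, without overlap. Stmn2, a tubulin-binding stathmin of young neurons, stood at 264, 506, 223 and 375 CPM in Prom1/CD24 and at 19.8, 13.6, 148 and 24.3 CPM in Troy-GFP (log2 fold 3.49 ± 0.50, adjusted p = 0.000162). It was detected in 26 of 64 and 19 of 311 cells. Dlx2, a homeobox factor of interneuron precursors, stood at 725, 921, 259 and 259 CPM in Prom1/CD24 and at 76.2, 139, 152 and 123 CPM in Troy-GFP (1.94 ± 0.36). Stmn1 rose by 1.73 ± 0.18 and the RNA-binding protein gene Elavl3 by 1.36 ± 0.21, both without overlap. Dlx1 (1.34 ± 0.36) and the antisense transcript Dlx6os1 (2.70 ± 0.59), which overlaps Dlx genes, passed while their libraries overlapped. With each cell thinned to 1000 transcripts 6 members of the list passed, and on the shared flow cell 7, as with the same weight for every cell. The mature neuron list did not follow: of 5 tested members 0 rose and 1 fell, Atp1b1, a sodium pump subunit also found in glia (-1.32 ± 0.34), and the list's median was -1.03. Thy1, a neuronal surface protein, stood at 23.9, 64.3, 12.1 and 30.7 CPM in Prom1/CD24 and at 75.8 to 114 CPM in Troy-GFP, which did not overlap, but it did not pass (adjusted p = 0.0955).

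Genes of G2 and M phase rose. In the G2 and M phase list 30 of 36 tested members were higher and 0 lower, with a median log2 fold of 1.75. The summed level was 7544, 11373, 6874 and 11032 CPM in Prom1/CD24 and 4015, 3709, 2492 and 3946 CPM in Troy-GFP. Every Prom1/CD24 library stood above every Troy-GFP library, with libraries 2 and 4 the highest. Top2a, the topoisomerase that untangles chromosomes, stood at 688, 1128, 541 and 1024 CPM in Prom1/CD24 and at 271, 364, 202 and 223 CPM in Troy-GFP (log2 fold 1.68 ± 0.24, adjusted p = 0.000158). Ube2c, the ubiquitin-conjugating partner of the anaphase-promoting complex, stood at 242, 429, 248 and 547 CPM in Prom1/CD24 and at 84, 44.9, 12.6 and 61.5 CPM in Troy-GFP (3.06 ± 0.42, adjusted p = 0.000133). Nusap1, a spindle protein, rose by 3.16 ± 0.43, the mitotic kinase Cdk1 by 2.04 ± 0.30, the chromatin protein gene Hmgb2 by 1.14 ± 0.21 and Tmpo, a protein of the nuclear envelope, by 1.45 ± 0.17. None of these genes overlapped between the sorts. In the S phase list 5 of 25 were higher and 0 lower (median 0.66), against 14.2% higher among all genes tested. Among these 5 were the ribonucleotide reductase subunits Rrm1 (1.38 ± 0.28) and Rrm2 (1.67 ± 0.34). Prom1/CD24 library 3 had the lowest S phase level of its sort, 2281 CPM against 3950 to 6369 CPM in the other three Prom1/CD24 libraries, and without it 12 members rose, against 3 without Prom1/CD24 library 2 or Troy-GFP library 1. Of 15 activated NSC and progenitor genes 2 rose, Ccna2 (1.8 ± 0.30) and Rrm2, and 1 fell, Egfr. These counts were no greater than the shares over all genes tested, 14.2% higher and 11.5% lower. Without Prom1/CD24 library 3, 7 rose. Ccnd2, a cyclin of progenitors, stood at 1885, 2941, 922 and 2881 CPM in Prom1/CD24 and at 1200.1, 967, 1426 and 1463 CPM in Troy-GFP and did not pass (adjusted p = 0.0704). Thinned to 1000 transcripts per cell, 12 G2 and M phase members and 1 S phase member passed, and with the same weight per cell 15 and 2.

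Promoters of 3 G2 and M phase genes are shown because the list moved together. Such promoters are known for the cell cycle genes homology region, TTTGAA, read by the DREAM complex, and for CCAAT boxes bound by NF-Y. Each stretch gives the 100 bases before the RefSeq start (GRCm38.p6), 5′ to 3′ on the gene's strand, with matches to either motif or its reverse in capitals. Top2a lies at chr11:99024190-99024289 (minus strand), Hmgb2 at chr8:57511743-57511842 (plus strand) and Ckap2l, which encodes a spindle protein and was chosen after its matches were seen, at chr2:129297213-129297312 (minus strand).
Top2a: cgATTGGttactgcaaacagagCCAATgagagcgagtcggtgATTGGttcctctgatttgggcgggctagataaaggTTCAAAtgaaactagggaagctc
Hmgb2: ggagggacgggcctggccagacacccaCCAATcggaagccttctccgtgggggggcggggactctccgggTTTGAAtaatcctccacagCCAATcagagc
Ckap2l: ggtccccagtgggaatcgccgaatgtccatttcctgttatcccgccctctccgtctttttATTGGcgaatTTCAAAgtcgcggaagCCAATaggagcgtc
Of the 32 members with a RefSeq promoter, 24 (75.0%) held TTTGAA or TTCAAA on either strand within the same window of 300 bases, compared with 10.4% of the promoters of genes tested and 18.1% of all promoters. CCAAT or ATTGG stood in 26 of 32 (81.2%), compared with 39.2% and 37.9%. The motifs can share a letter at their ends, and no match says only that the letters are missing from this window. Ckap2l itself stood at 216, 213, 73 and 113 CPM in Prom1/CD24 and at 45.4, 53.1, 43.2 and 61 CPM in Troy-GFP, and rose by 1.44 ± 0.31 (adjusted p = 0.00304).

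Oligodendrocyte and microglial genes were far higher in Prom1/CD24 and came largely from few cells. Of 18 listed oligodendrocyte genes 11 were tested. Of these, 9 rose and 0 fell (median log2 fold 3.90), against 14.2% higher among all genes tested. Cldn11, Ermn and Trf were tested only through Prom1/CD24, since they lay below the filter in every Troy-GFP library. The summed level was 24633, 1059, 17370 and 22687 CPM in Prom1/CD24 and 673 to 787 CPM in Troy-GFP, so library 2 lay far below the other Prom1/CD24 libraries. Of the list's transcripts in Prom1/CD24, 68.8% came from 3 cells. Cldn11, the claudin of the myelin sheath, stood at 1254, 131, 1232 and 1224 CPM in Prom1/CD24 and at 0, 0, 10.1 and 19.5 CPM in Troy-GFP (7.49 ± 1.98, adjusted p = 0.0119). Mbp, myelin basic protein, stood at 1617, 91.6, 831 and 1242 CPM in Prom1/CD24 and at 27.2 to 59.6 CPM in Troy-GFP (3.90 ± 0.74), and Mal, a myelin membrane protein, rose by 4.29 ± 0.79. Cnp, a myelin enzyme, rose by 2.48 ± 0.72, although Prom1/CD24 library 2, at 64 CPM, lay below the Troy-GFP range of 88.4 to 111 CPM. Trf, which encodes the iron carrier transferrin, Ermn, a cytoskeletal myelin protein, and Tubb4a, a tubulin of oligodendrocytes and neurons, were among the 12 highest folds, at 6.34 ± 1.12, 5.95 ± 1.08 and 5.48 ± 1.38. Tubb4a, which is not in the list, was likewise tested only through Prom1/CD24. The precursor list did not rise: 0 of 4 were higher, and Cspg5, a proteoglycan shared with astroglia, fell by 2.93 ± 0.32.

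Of 22 listed microglial and macrophage genes 8 were tested, and those 8 rose (median 6.43). Most of them lay below the filter in every Troy-GFP library and so were tested only through Prom1/CD24, which makes the count and median a description. Their summed level was 8651, 773, 3616 and 1885 CPM in Prom1/CD24 and 72.6 to 97.1 CPM in Troy-GFP. C1qb, a chain of complement C1q, stood at 992, 121, 348 and 179 CPM in Prom1/CD24 and at 0 in all 4 Troy-GFP libraries. It was found in 10 of 64 Prom1/CD24 cells and in 0 of 311 Troy-GFP cells. Taking cells as independent draws, the 0 allows a share of up to 0.965% of cells with a detected transcript, not of expressing cells. Against a floor of 3 transcripts over the Troy-GFP sort the log2 fold of C1qb was at least 7.55. C1qc (461, 82.9, 373 and 167 CPM), the growth factor receptor gene Csf1r (841, 55.1, 247 and 189.5 CPM) and the protease gene Ctss (1107, 74, 299 and 245 CPM) were each found in 1 or 2 Troy-GFP cells. Tmem119, Trem2, Laptm5 and Selplg, all known from microglia, completed the 12 highest folds, at 5.27 ± 0.74, 5.26 ± 0.70, 5.96 ± 1.08 and 5.94 ± 1.21. Selplg, which is not in the list, was also tested only through Prom1/CD24. Of the list's Prom1/CD24 transcripts 64.9% came from 3 cells. At a minimum of 2000 transcripts per well 1 member was still tested and 0 passed (limma voom). The stretch before C1qb is shown as the gene that was at 0 in Troy-GFP (GRCm38.p6, chr4:136886201-136886300, minus strand), with GAGGAA, the core letters of the motif of the myeloid factor PU.1, in capitals.
C1qb: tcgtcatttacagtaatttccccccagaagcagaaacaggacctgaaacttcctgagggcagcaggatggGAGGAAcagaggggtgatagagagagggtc
GAGGAA or TTCCTC stood in 5 of the 5 members with a RefSeq promoter, in 26.3% of the promoters of genes tested and in 28.3% of all promoters.

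Vessel genes were divided. Over all genes tested, the background of each list here, 14.2% were higher and 11.5% lower. Of 23 tested endothelial members 11 rose and 1 fell (median 1.01), but the summed level overlapped, at 4133, 4933, 13062 and 8857 CPM in Prom1/CD24 and 3152 to 4613 CPM in Troy-GFP. Ly6c1, a surface protein of brain endothelium, stood at 772, 472, 1416 and 1093 CPM in Prom1/CD24 and at 228, 285, 108 and 174 CPM in Troy-GFP (2.18 ± 0.32, adjusted p = 0.000202). Ly6a rose by 2.21 ± 0.35 and Eng, the TGF-beta co-receptor endoglin, by 2.52 ± 0.37, without overlap. Eng, which is also in the VEGF list below, lay under the filter in every Troy-GFP library and was tested only through Prom1/CD24. Cldn5, the tight junction claudin of the blood-brain barrier, stood at 168, 120.0, 473 and 238 CPM in Prom1/CD24 and at 103, 148, 45.5 and 34.1 CPM in Troy-GFP (1.62 ± 0.46), with overlap. The VEGF receptor gene Flt1 (1.01 ± 0.32) and the chemokine gene Cxcl12 (3.27 ± 0.67) also rose with overlap. After thinning, 3 members of the list passed, and with the same weight per cell 5. In the VEGF list 4 of 9 rose and 2 fell: the co-receptor gene Nrp1 rose by 1.39 ± 0.31, while the ligand gene Vegfa stood at 96, 231, 309 and 175 CPM in Prom1/CD24 and at 501 to 648 CPM in Troy-GFP and fell by 1.45 ± 0.23. Junction genes split as well, 4 of 15 higher and 5 lower (2 higher without Prom1/CD24 library 3 and 2 lower without library 4), with the catenin gene Ctnnb1 up by 0.92 ± 0.20, the astroglial connexin gene Gja1 at -2.69 ± 0.24 and Cldn10 at -2.14 ± 0.23. Of 16 barrier transport genes 2 rose, among them the arginine transporter gene Slc7a1 (1.52 ± 0.30), and 2 fell, the glutamine transporter gene Slc38a3 (-1.91 ± 0.27) and the thyroid hormone transporter gene Slco1c1 (-1.54 ± 0.51). Both counts were near the shares over all genes tested, 14.2% higher and 11.5% lower.

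Genes of ependymal cells did not pass. Of 7 tested ependymal members 0 rose and 0 fell in limma voom, and 0 had libraries that did not overlap, with a median of 1.04. Foxj1, the master regulator of motile cilia, stood at 71.7, 0, 412 and 124 CPM in Prom1/CD24 and at 59.8, 15.5, 22.8 and 17 CPM in Troy-GFP (0.92 ± 0.94, adjusted p = 0.51). Ccdc153, a gene of cilia, stood at 145, 0, 361 and 104 CPM in Prom1/CD24 and at 61.8, 1.94, 17.7 and 19.6 CPM in Troy-GFP. Prom1/CD24 library 2 held almost none of these genes, and without it 5 of 7 members rose. In the cilia and axoneme list 1 of 20 rose and 2 fell, against 14.2% and 11.5% of all genes tested. Without Prom1/CD24 library 2 the list's numbers were 5 and 1. Single cells held most of 2 further list sums. The choroid plexus list summed to 24656 CPM in Prom1/CD24 library 3, where 1 cell held 82.9% of the sort's transcripts of that list, and its only tested member, Enpp2, did not pass (adjusted p = 0.144). The blood cell list, with 0 members tested, summed to 27039 CPM in Prom1/CD24 library 1, and 1 cell held 98.7% of it. Of 2 pericyte genes 1 rose, and of 3 fibroblast genes 0 passed.

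Ribosomal protein genes rose, as did some genes of respiration and of the immediate early response. Over all genes tested, the background of each list here, 14.2% were higher and 11.5% lower. Of 70 tested cytosolic ribosomal protein genes 66 rose and 0 fell (median 0.92). Their sum was 58436, 68428, 58295 and 71278 CPM in Prom1/CD24 and 35155, 33831, 31669 and 36560 CPM in Troy-GFP, without overlap. Rps15 stood at 698, 564, 685 and 677 CPM in Prom1/CD24 and at 197, 207, 152 and 226 CPM in Troy-GFP (1.74 ± 0.17). After thinning 10 of the 70 passed, with a median of 0.58. Of 70 respiratory chain genes 20 rose and 50 did not pass (median 0.47); those that rose include Ndufa2 of complex I (1.07 ± 0.19) and Cox7a2 of complex IV (1.28 ± 0.21). After thinning 0 rose and 2 fell, and the list's median was -0.14, beside -0.19 over all genes in that fit. Without Prom1/CD24 library 4, 12 rose. Of 24 immediate early and dissociation genes, which are known to be switched on during tissue digestion, 15 rose and 0 fell (median 0.99), and 7 rose after thinning. Fos stood at 898, 456, 868 and 423 CPM in Prom1/CD24 and at 295, 311, 169.6 and 235 CPM in Troy-GFP (1.27 ± 0.26), and Egr1 at 654 to 768 and 194 to 306 CPM (1.55 ± 0.18). Jun rose by 0.98 ± 0.21 and Ier2 by 2.61 ± 0.40. Of 9 interferon and MHC class I genes 5 rose and 0 fell (median 1.08). B2m, the light chain of MHC class I, stood at 681, 518, 1312 and 808 CPM in Prom1/CD24 and at 262, 263, 222 and 215 CPM in Troy-GFP (1.70 ± 0.23). H2-D1 rose by 1.08 ± 0.23 and Ifitm3, a membrane protein against virus entry, by 2.02 ± 0.35. Microglia, oligodendrocytes and vessel cells, whose markers are higher in Prom1/CD24 as given above, also express such genes, and their part in these lists was not tested.

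Malat1, a long noncoding RNA kept in the nucleus and chosen here after its values were seen, fell. It stood at 3883, 4448, 6276 and 5340.2 CPM in Prom1/CD24 and at 32964, 33132, 37205 and 36515 CPM in Troy-GFP. The log2 fold was -2.81 ± 0.12 (adjusted p = 1.27e-09). Its pooled level was also lower in Prom1/CD24 within these shared classes: 9925 and 39990 CPM in NSC and astrocyte-like cells, 6917 and 22570 CPM in endothelial-like cells, 5009 and 18110 CPM in ependymal-like cells, and 1697 and 10350 CPM in progenitor-like cells, for Prom1/CD24 and Troy-GFP in that order. These are pooled sums with no test.

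Clustering of all 1789 cells of the series, without members of the ribosomal protein and cell cycle lists, placed the cells of both sorts in 13 classes named from marker lists. Cell cycle genes outside those lists could still take part. The names were rebuilt from transcripts and are not the authors'. NSC and astrocyte-like cells made up 18.2%, 30%, 5.88% and 6.25% of the Prom1/CD24 libraries and 75.0%, 44.7%, 69.4% and 71.1% of the Troy-GFP libraries. The means were 15.1% ± 11.5 and 65.1% ± 13.8 (SD, n = 4), and the libraries did not overlap (exact permutation p = 0.0286, adjusted over 13 classes 0.124). A class left unnamed, led by cell cycle genes such as Top2a, Ccna2 and Ube2c, made up 15.9% ± 3.23 of Prom1/CD24 (10 cells) and 1.26% ± 0.988 of Troy-GFP (4 cells; exact permutation adjusted p = 0.124). Cd24a was found in 8 of those 10 and all 4 of those cells, at 1165 and 884.7 CPM. Microglia and macrophage-like cells made up 10.3% ± 6.02 of Prom1/CD24 (6 cells, in all 4 libraries) and 0 of 311 Troy-GFP cells (exact permutation adjusted p = 0.124). Oligodendrocyte-like cells numbered 5 in Prom1/CD24, none in its library 2, and 0 in Troy-GFP. No class share passed after adjustment. With 4 against 4 libraries a class could pass only if most of the 13 classes reached the smallest p, so this says little about any single class.

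The remaining classes overlapped or held few cells. Endothelial-like cells made up 9.09%, 10.0%, 23.5% and 25% of Prom1/CD24 and 8.75%, 11.8%, 6.94% and 7.23% of Troy-GFP (exact permutation p = 0.114). Prom1 was detected in 6 of 11 endothelial-like Prom1/CD24 cells (248.5 CPM) and 16 of 27 endothelial-like Troy-GFP cells (280.2 CPM), out of 10 and 43 cells with a Prom1 transcript in all. Of the 4 ependymal-like Prom1/CD24 cells 0 held a Prom1 transcript, while all 4 held Cd24a (2300 CPM), as did all 5 in Troy-GFP (1192 CPM). Progenitor-like cells numbered 6 in Prom1/CD24 and 29 in Troy-GFP (8.03% ± 8.48 and 9.29% ± 2.54). Neuroblast-like cells numbered 1 and 2, fibroblast-like cells 3 and 2, choroid plexus-like cells 1 and 0, mature neuron-like cells 4 and 0, and precursor-like cells 0 and 4. The mature neuron-like difference of 5.85 points was 1.56 at a finer clustering and 0.51 with wells from 500 transcripts upward, and clustering of wells from 2000 transcripts upward put no cell of either sort in that class. Unnamed other cells numbered 3 and 35. Of the 35, 24 were all in Troy-GFP library 2, where they made up 31.6% of cells, in a cluster led by genes that include Gstm3, Adh1, Lypd8 and Reg1. Without that cluster, in a fit added after the data were seen, 1282 of 5347 genes passed. The share of a class is set by the gate of its sort, and cells were not sorted in proportion to the tissue.

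**Figure D4:**
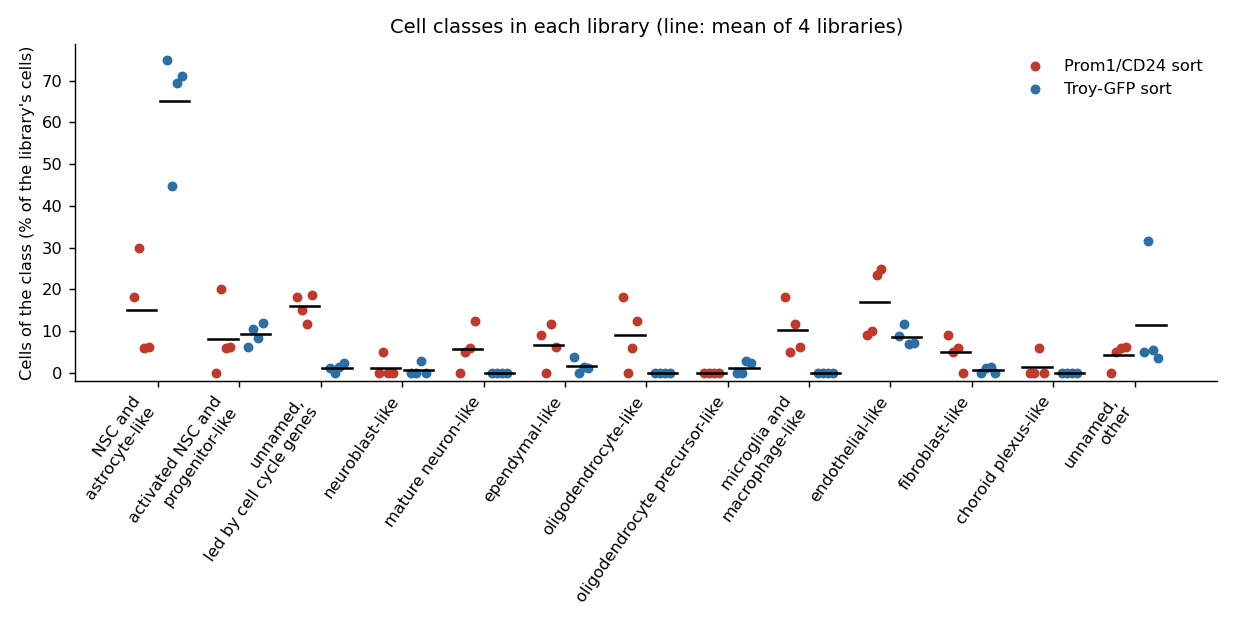
Share of each library's cells in 13 classes, with Prom1/CD24 left of Troy-GFP in each class, 1 point per library and lines at the mean of 4 libraries. NSC and astrocyte-like cells make up 5.88% to 30% of Prom1/CD24 libraries and 44.7% to 75.0% of Troy-GFP libraries, and microglia, oligodendrocyte and mature neuron-like cells occur in Prom1/CD24 alone. The mature neuron-like cells are 4 shallow wells of 1014 to 1685 transcripts, each with at least 2.23% Lrrc17.

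Within classes shared by both sorts, the share of transcripts from the ribosomal protein, S phase and G2 and M phase lists was compared over libraries in 12 tests. Members of these lists took no part in the clustering. Other cell cycle genes could, so the cell cycle comparison is not independent of how the classes formed. In endothelial-like cells ribosomal protein genes took 6.79% ± 1.13 of transcripts in Prom1/CD24 and 4.58% ± 0.567 in Troy-GFP (SD, n = 4; exact permutation p = 0.0286, adjusted 0.171). In NSC and astrocyte-like cells they took 2.42% ± 0.560 and 1.95% ± 0.181 (exact permutation p = 0.229). G2 and M phase genes took 0.149% ± 0.0148 and 0.117% ± 0.0187 of transcripts in NSC and astrocyte-like cells (exact permutation p = 0.0286, adjusted 0.171). None of the 12 passed after adjustment. The smallest possible exact permutation p is 0.0286, or 0.0571 where 1 library held no cell of the class. No outcome could therefore have passed the adjustment over 12 tests, and it decides nothing here. Most Prom1/CD24 libraries held 1 to 4 cells of a class.

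The Prom1/CD24 wells with 500 to fewer than 1000 transcripts numbered 124 (23, 40, 28 and 33 by library), against 6 such wells in Troy-GFP. They held a median of 642 transcripts and 396.5 genes. Their median ERCC transcripts, 1237, were close to the 1052 of Prom1/CD24 cells, so there were 0.528 transcripts per ERCC transcript, against 4.86 in the cells. Leaving out ribosomal proteins, the most abundant genes of these wells included Lrrc17, Rn45s, Kif3a, Camk2n1 and Apoe. Lrrc17 (chromosome 5, 21543559 to 21575904), which encodes a leucine-rich repeat protein, took 12.5% of all their transcripts. Its level was 153500, 122500, 110600 and 120900 CPM in the 4 libraries. It was detected in 122 of the 124 wells, was the most abundant gene in 104, and reached 29.5% of a well's transcripts. Rn45s, the ribosomal RNA precursor, stood at 44570 CPM, the kinesin gene Kif3a at 19200 CPM, the CaMKII inhibitor gene Camk2n1 at 6748 CPM and Apoe at 5396 CPM. In Prom1/CD24 cells and Troy-GFP cells, Kif3a stood at 905 and 596 CPM and Rn45s at 21960 and 66060 CPM.

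Lrrc17 was far higher in shallow Prom1/CD24 wells than in shallow Troy-GFP wells. Over all wells below 1000 transcripts it stood at 148100, 111600, 122900 and 110400 CPM in the Prom1/CD24 libraries and at 453.5, 717, 14020 and 1915 CPM in the Troy-GFP libraries. The means were 123300 ± 17480 and 4277 ± 6528 CPM (SD, n = 4), and no library overlapped; since Lrrc17 was chosen for its abundance in these wells, this is a description with no test. Prom1/CD24 wells with 200 to 499 transcripts stood at 123400 CPM and those below 200 at 83440 CPM. In the other 5 sorts of the series, wells below 1000 transcripts stood at 830 to 15860 CPM. Lrrc17 levels among cells, unlike those of the shallow wells, were scaled by TMM. They stood at 2255, 3688, 2942 and 3088 CPM in the Prom1/CD24 libraries and at 206, 137, 202 and 442 CPM in the Troy-GFP libraries. Among cells Lrrc17 rose by 3.77 ± 0.26 (limma voom adjusted p = 1.84e-07). It took at least 1% of transcripts in 7 of 64 Prom1/CD24 cells and 0 of 311 Troy-GFP cells. Of these 7 cells, 4 were the mature neuron-like cells of the sort, with 1014 to 1685 transcripts and 2.23% to 10.3% Lrrc17. Without such cells, likewise added after the data were seen, 1424 of 5501 genes passed.

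**Figure D5:**
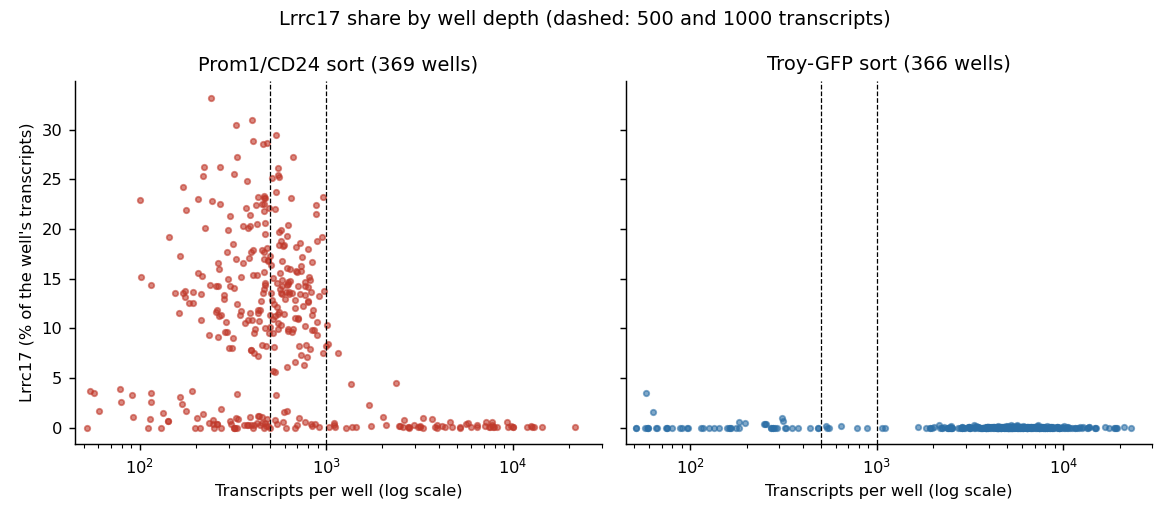
Lrrc17 as a percentage of each well's transcripts against the well's transcripts (log scale), for 369 Prom1/CD24 wells (left) and 366 Troy-GFP wells (right) with at least 50 transcripts; dashed lines mark 500 and 1000 transcripts. Prom1/CD24 wells between the lines reach 29.5% with a median of 13.3%, and Troy-GFP cells above 1000 transcripts stay at or below 0.299%.

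Neuronal transcripts were also high in these wells, among genes chosen after their values were seen. The neuronal kinesin gene Kif5a stood at 4307 CPM in the wells, against 173 CPM in Prom1/CD24 cells and 24.9 CPM in Troy-GFP cells. Camk2a, the alpha subunit of CaMKII, stood at 1956, 50.6 and 7.26 CPM in the same order, the dendritic gene Ddn at 1283, 35.7 and 1.55 CPM, and Nrgn, the postsynaptic calmodulin-binding protein neurogranin, at 1247, 53.7 and 4.65 CPM. The mature neuron list summed to 4278 CPM in the wells, 764 CPM in Prom1/CD24 cells and 784 CPM in Troy-GFP cells. The NSC and astrocyte list summed to 29240, 18420 and 62360 CPM. Transcripts of the sort's own antigens were rare: Cd24a was found in 9 of 124 wells (119.6 CPM) and Prom1 in 2. Malat1 stood at 4367 CPM, close to the 5027 CPM of pooled Prom1/CD24 cells. When wells from 500 transcripts upward were clustered, 110 of the 124 fell in 1 cluster of 115 wells, all Prom1/CD24, led by Lrrc17, Camk2a, Kif5a, Ddn, Hpcal4, Nrgn and Camk2n1. The other 14 joined clusters named oligodendrocyte-like (5), NSC and astrocyte-like (4), microglia and macrophage-like (2), progenitor-like (2) or none (1).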

How the data were processed

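The authors' deposited tables hold, for each library, 1 row per gene and 1 column per well. The values are not whole counts: 4800995 of the 4801006 deposited values above 0 equal, within 1e-06, a number of random barcodes corrected for collisions among 256 barcodes, so each is an estimated number of transcripts. Reads were 75 bp paired-end reads of a NextSeq500 per the labels' protocols, aligned with BWA 0.6.2-r126 to mm10 per the submitters' processing notes. Gene coordinates come from the GENCODE M21 annotation of mm10, and promoters from RefSeq.

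Transcripts of wells with at least 1000 over gene rows were summed per library. Genes with 10 transcripts in a library of median size (39.27 CPM) in at least 4 libraries, and 15 in all, were tested with limma voom (limma 3.58.1, R 4.3.3) after TMM scaling, 4 against 4 libraries with no covariate, and Benjamini-Hochberg adjustment over all 5477 genes (threshold 0.05). CPM values of cells summed per library are scaled by TMM. Those of classes, of cells pooled over a sort, of wells below 1000 transcripts and of Xist are not. Other p-values are from exact 2-sided permutation tests (scipy 1.17.1). The fit was tested on simulated data. Cells were clustered with scanpy 1.11.5 and igraph 0.11.9 (2000 variable genes, 30 components, 15 neighbours, Leiden resolution 1.0); no doublet caller was run. Floors and shares cover counting error only.

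The sorts, lists and named genes were chosen with earlier results of these data known. Named genes were 6 sort genes, the first 3 tested members of each list described and the 4 with the smallest p, the 12 highest and 12 lowest called genes whose libraries did not overlap, leaving out predicted, clone and multi-copy symbols, and the 6 most abundant non-ribosomal genes of the wells with 500 to fewer than 1000 transcripts. Alternatives were other scalings, no filter, other cell minimums, thinning to 1000 transcripts, equal weight per cell, limma trend, all 28 libraries, the shared flow cell, a replicate block and leaving out each library. A few genes that the rule names are not reported here.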

Additional observations from a re-analysis of the deposited data

Results flagged for a closer look

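Several values stood apart from the other 3 libraries of their sort by Dixon's test for 4 samples. For normally distributed values chance meets it in about 1 in 20 groups. A value above 0 in a single library always meets it, however low, so that rate does not hold for such values. In Prom1/CD24, library 2 was far below the others for Cldn11 (131 CPM) and below them for Rps15 (564 CPM, with the others at 677 to 698 CPM). Library 1 was far above for Selplg (841 CPM), the pericyte list (3284 CPM), the blood cell list (27039 CPM) and the ERCC share (56.8%). Library 3 was far above for Ifitm3 (1072 CPM), the interferon and MHC class I list (6209 CPM), the choroid plexus list (24656 CPM) and the choroid plexus-like share (5.88%). Thbs4 (129 CPM), Oaf (36.5 CPM) and the neuroblast-like share (5.0%) were above 0 in Prom1/CD24 library 2 alone, and Dab1 (60.7 CPM) and Prrx1 (24.2 CPM) in library 3 alone.

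In Troy-GFP, library 1 was high for Foxj1 (59.8 CPM). Library 2 was high for other unnamed cells (31.6%). Library 3 was high for Stmn2 (148 CPM), Prrx1 (141 CPM), Ctss (5.03 CPM) and the neuroblast-like share (2.78%). C1qc (4.84 CPM), Csf1r, Trem2 and Selplg (2.42 CPM each) were above 0 in library 4 alone.

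Outside the cells compared, Lrrc17 stood at 125100 CPM in the Prom1/CD24 wells with 500 to fewer than 1000 transcripts, above its level in the cells of either sort.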

How the results depend on the processing

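The count of genes passing, 1412, kept within 1.5 times under library totals, median of ratios, other cell minimums, limma trend, all 28 libraries, the shared flow cell and X and Y genes kept. It was 4419 with no filter on low values (3150 higher, 1269 lower), 476 with cells thinned to 1000 transcripts (150 and 326) and 724 with equal weight per cell (350 and 374); the median log2 fold of all genes was -0.19 and -0.17 in these. Genes higher in Prom1/CD24 numbered 496 under limma trend (672 lower) and 496 on the shared flow cell (492 lower). Leaving out each library in turn gave 930 to 1346, with 532 to 738 higher and 398 to 608 lower, and the lowest count was without Prom1/CD24 library 4. Same-numbered libraries did not deviate together (r = -0.02, 0.02, -0.02 and 0.04), so the numbers do not pair them; with the replicate block 1347 passed (847 higher, 500 lower). Of 101 named genes 0 reversed in any of these fits, while 26 lost their call after thinning, 14 with equal weight per cell and 10 without Prom1/CD24 library 4. The wells difference ranged from -62.5 to -66.3 points and the ERCC difference from 35.9 to 40.1 without single libraries, where 0.0571 is the smallest possible p. At a minimum of 500 transcripts the median depth difference was -4749, the endothelial-like share difference -3.28 points, the neuroblast-like -0.278, the mature neuron-like 0.51 and the other unnamed 51.6. At Leiden resolution 2.0 the mature neuron-like difference was 1.56 points and the progenitor-like 8.70. Without single libraries the progenitor-like difference ran from -5.24 to 1.42, the neuroblast-like difference from -0.694 to 1.25 and the choroid plexus-like from 0 to 1.96. The cause of these shifts was not tested. With 64 Prom1/CD24 cells, genes absent there are limited by depth.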
